A study of Rattus norvegicus with 30 samples.

Results

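Complement genes were described in the brain of 30 male Sprague Dawley rats. The genes were C1qa, C1qb and C1qc, which encode the chains of C1q, C1r and C1s, the proteases bound to it, Serping1, the inhibitor of these proteases, C3, the central component of the cascade, and C3ar1, a receptor for a fragment of C3. They were the rows of the table whose gene symbol was one of 9 symbols asked for. Of these, 8 were found among the 17134 genes of the table, and C5ar1 was not matched by symbol and is not analysed here. There were 10 wild-type (WT) rats, which express rat amylin, 10 HIP rats, which also express human amylin in the pancreatic β-cells and develop type-2 diabetes, and 10 rats in which the amylin gene was knocked out (AKO). HIP and WT rats were 15 to 16 months old and the rats had a normal diet, and the labels give no age for the AKO rats. The comparison asks how brain complement RNA differs between rats whose pancreas secretes amyloid-forming human amylin, rat amylin or no amylin.

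The complement cascade is a set of proteins that mark and remove microbes, dying cells and debris. In the classical pathway, C1q binds its target and activates C1r and then C1s, which cleave the next components so that C3 is split and deposited on the target. In the brain, C1q is made mainly by microglia, and C1q and C3 are known for tagging synapses for removal. C3ar1 and the integrin of Itgam and Itgb2, complement receptor 3, are found on microglia and other myeloid cells. Serping1 and C1s are made by several cell types, among them fibroblasts and astrocytes.

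The genes of the C1q chains lie next to each other on the rat genome, in the order C1qb, C1qc and C1qa, and C1r and C1s are neighbours on another chromosome (RefSeq, assembly GRCr8). Promoters of 5 of the 8 genes were in the RefSeq promoter table of that assembly. The bases before the start of C1qa and C1qb are shown here because both genes moved together across rats. Expression values come from a table made on rn7, an earlier build. The upstream sequence of C1qa is at chr5:154419934-154420183 and that of C1qb at chr5:154407828-154408077, both on the minus strand of GRCr8, 250 bases each, and capitals mark motif matches.
C1qa: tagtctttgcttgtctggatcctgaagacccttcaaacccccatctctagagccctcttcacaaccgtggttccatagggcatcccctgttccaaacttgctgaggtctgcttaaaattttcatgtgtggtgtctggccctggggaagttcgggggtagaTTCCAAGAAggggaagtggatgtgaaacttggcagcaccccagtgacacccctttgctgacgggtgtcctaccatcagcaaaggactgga
C1qb: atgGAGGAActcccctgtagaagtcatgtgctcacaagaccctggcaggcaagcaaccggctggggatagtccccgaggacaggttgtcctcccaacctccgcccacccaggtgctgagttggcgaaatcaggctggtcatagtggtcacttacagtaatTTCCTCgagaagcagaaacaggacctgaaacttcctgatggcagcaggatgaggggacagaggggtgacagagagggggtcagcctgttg
The motifs searched, on both strands, were GAGGAA, the core bound by PU.1, a transcription factor of microglia and other myeloid cells, TTCNNNGAA, the STAT site, and GAAANNGAA, an interferon response element. They do not overlap in these sequences. C1qa held the STAT site 90 bases before its start, and 8.68% of 27457 promoters of the table held it. In C1qb, the PU.1 core stood 247 bases before the start and, on the other strand, 90 bases before it, and 27.5% of promoters held it at least once. The PU.1 core also stood 55 bases before the start of C1r. None of the motifs was found in the promoter windows of C3 and C3ar1, and the interferon response element, present in 9.5% of promoters, was in none of the 5. A match is a description of letters and not a binding site.

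The values are normalized counts, that is, reads on a gene scaled by the authors with DESeq2, and they compare rats and not genes, since no gene lengths were used. Totals per rat were 15.4 to 17.98 M, and the estimated reads behind them were 12.9 to 23.6 M. The tissue is frontal cortex in the labels, while the text of the study names it both cerebral cortex and hippocampus. Cortical markers such as Slc17a7 and Tbr1 were high, with 1433 or more normalized counts of Tbr1 in 29 of 30 rats and 16.7 in WT rat 10RT43. The dissection was not the same in every rat. Cerebellum genes were 7.84 above the median of all rats in 10RT43 and 4.94 above it in HIP rat 12RT23 (mean log2), pineal gland genes 8.58 above it in HIP rat 10RT46, and choroid plexus genes 4.14 above it in AKO rat 7AKO19. Olfactory bulb genes were high in 10 rats, of which 3 were WT, 3 HIP and 4 AKO. Striatum genes (mean log2) ranged from 6.32 to 10.47 in WT, 7.471 to 9.999 in HIP and 7.426 to 10.41 in AKO rats. They were highest in WT rat 10RT55 and AKO rat 4KAH27. AKO rats carry rat names of another kind than WT and HIP rats, so anything that differed between these sets of rats cannot be told apart from the genotype. In bulk tissue, fewer cells of a type and less RNA per cell cannot be told apart.

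Transcripts of C1q were higher in AKO than in WT and HIP rats, and the HIP rats had 1 animal far above all others. In WT rats, C1qa ranged from 647 to 1219 normalized counts with a median of 1094. HIP rats ranged from 763 to 4343 with a median of 929, and AKO rats from 1077 to 1810 with a median of 1592. The highest HIP value was rat 10RT48, and the other 9 HIP rats did not exceed 1120. Of the AKO rats, 8 were above every WT rat, and the other 2, 6KAH99 and 7AKO30, were at 1077 and 1080.

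**Figure D1:**
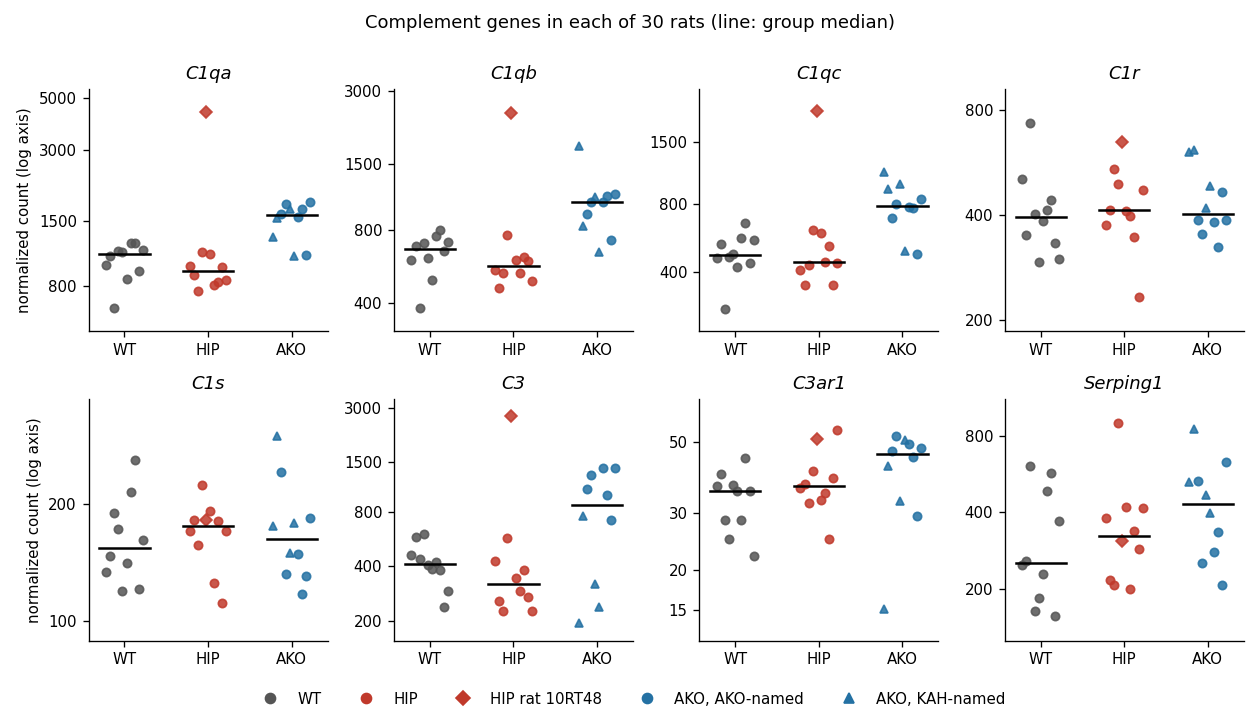
Normalized counts (log axis) of the 8 complement genes in each WT, HIP and AKO rat, with the group median as a line. HIP rat 10RT48 stands alone in C1qa, C1qb, C1qc and C3. Most AKO rats are above the WT rats in these genes and, with 6 of 10 rats, in C3ar1. The groups overlap in all 8 genes.

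C1qb and C1qc, the other chains of the same protein, followed the same order of groups. C1qb had medians of 670 in WT rats (383 to 798), 570.0 in HIP rats (461 to 2448) and 1049 in AKO rats (651 to 1786). For C1qc the medians were 474 in WT rats (275 to 661), 442 in HIP rats (350.3 to 2052) and 784 in AKO rats (479 to 1104). The highest HIP value of both was again 10RT48, and 8 AKO rats were above every WT rat in each of them.

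Compared with WT rats, the 3 chains were 1.47 to 1.604 times higher in AKO rats, and each passed the unadjusted threshold and missed the adjusted one. WT rats had 1030 ± 179.6 normalized counts of C1qa and AKO rats 1514 ± 272 (SD, 10 rats each). The log2 fold change was 0.56 ± 0.12 (SE), with p = 0.000162 unadjusted and 0.0790 after Benjamini-Hochberg adjustment over all genes (limma). C1qb rose by 0.67 ± 0.15 (p = 0.000275, limma adjusted p = 0.0997) and C1qc by 0.68 ± 0.16 (p = 0.00025, limma adjusted p = 0.0970). For C1qc, 10 of 10 AKO rats were above the WT median, and for C1qb 9 of 10.

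Of the 8 complement genes, 4 had an unadjusted p under 0.05 in AKO vs. WT, all higher in AKO rats, against 9.34% of the 17058 genes tested, or 5.23% counting only genes higher in AKO rats. No member passed the adjusted threshold, which 0.0997% of genes did. The median log2 fold change was 0.52 for the members and 0.0014 for all genes. All AKO rats lay above, or all below, every WT rat in 0.0117% of genes and in none of the members. With weights for sample quality, C1qa, C1qb, C1qc and C3 also passed the adjusted threshold. Without AKO rat 6KAH99, 3 members passed it, and without 7AKO30, 2 did. Without any other single rat, none did.

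**Figure D2:**
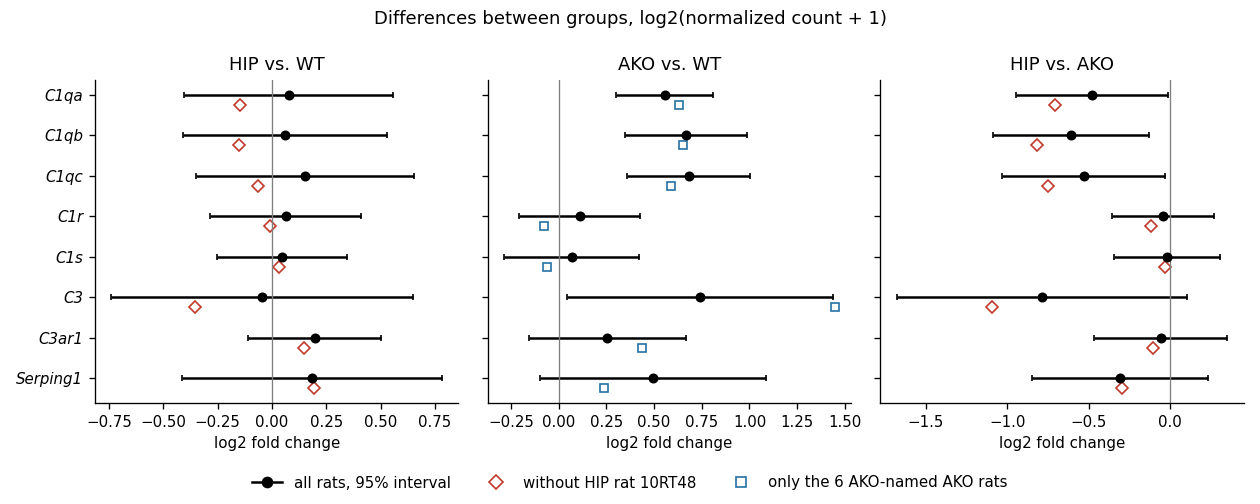
Log2 fold changes (x axis) of the 8 genes (rows) in HIP vs. WT, AKO vs. WT and HIP vs. AKO, with 95% intervals for all rats. Open diamonds are values without HIP rat 10RT48, and open squares are values with only the 6 AKO-named AKO rats. In AKO vs. WT the intervals of C1qa, C1qb, C1qc and C3 lie above 0, and C3 is 1.45 in the AKO-named rats.

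C3, the component at which the pathways of complement meet, was higher in AKO than in WT rats, but not in all AKO rats alike. WT rats ranged from 239.5 to 602 normalized counts (median 414), HIP rats from 226 to 2692 (median 320.4) and AKO rats from 195 to 1400 (median 877). The log2 fold change in AKO vs. WT was 0.74 ± 0.34 (p = 0.0388, limma adjusted p = 0.50). In that group, 7 rats were above every WT rat, and 3 were within or below the WT range. Leaving out 1 rat at a time, the difference kept its direction in 20 of 20 fits (0.62 to 0.94) and had p of 0.0515 to 0.0775 in 11 of them, those without WT rats 10RT47, 10RT51, 10RT55 or 10RT57 or without AKO rats 4KAH35, 6AKO35, 6AKO52, 7AKO19, 7AKO28, 7AKO30 or 7AKO42. Without the rats with cerebellum, pineal gland or choroid plexus genes it was 0.64 (p = 0.0796), and in a fit of all 30 rats it was 0.74 (p = 0.0614).

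The AKO rats carried names of 2 kinds, with AKO in 6 and KAH in 4, and the labels do not say what the names mean. C3 was 721 to 1400 in the 6 AKO-named rats, all above the highest WT rat. The KAH-named rats had 195, 239, 321 and 759 normalized counts. The AKO-named rats lay all above, or all below, every WT rat in 0.328% of genes. With only the AKO-named rats, C3 was 1.45 higher than in WT rats on the log2 scale, with limma adjusted p = 0.00148. With only the KAH-named rats it was -0.32 (p = 0.305).

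Between the sets of AKO rats, C3 differed by 1.77 on the log2 scale (exact permutation test over 210 splits of the rats, two-sided, p = 0.00952, with 0.00476 the smallest possible p). C1r, a protease of the C1 complex, differed the other way, by -0.46 (exact permutation p = 0.00952), with 324 to 464 normalized counts in AKO-named and 418 to 615 in KAH-named rats. This test was run on the 8 members, was chosen after the data were seen, and cannot pass an adjustment over all genes at this size. The other 6 members had exact permutation p of 0.124 or more, and the C1q chains were 0.45 to 0.82 higher than in WT rats with the KAH-named rats alone. The mean log2 of blood and blood cell genes was 5.15 to 7.15 in KAH-named and 4.42 to 5.08 in AKO-named rats. Its part in the result was not tested.

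The ratio of C3 to C1qa uses the same C3 values, so it restates their split and is not a second result. It was 0.591 to 0.886 in AKO-named and 0.151 to 0.491 in KAH-named rats, and 0.257 to 0.680 in WT rats. HIP rats were at 0.266 to 0.620, with 10RT48 the highest of them.

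**Figure D3:**
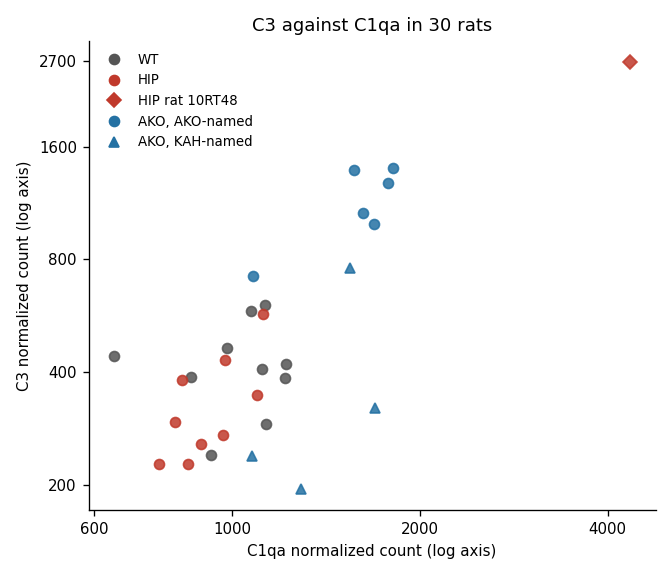
Normalized counts of C3 (y axis) against C1qa (x axis), both log axes, 1 point per rat. The 6 AKO-named rats lie above the WT rats and the other 9 HIP rats in C3, 3 of the 4 KAH-named rats have C1qa of 1077 or more with C3 of 195 to 321, and HIP rat 10RT48 is at the top right.

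C1r and C1s, the proteases that C1q activates, showed no difference between groups beyond the spread between rats. C1r had medians of 394 in WT (294 to 734), 412 in HIP (232 to 649) and 403 in AKO rats (324 to 615). C1s had medians of 154.3 (120 to 259.7), 176 (111 to 225) and 162 (117 to 299.8). The log2 fold change in AKO vs. WT was 0.11 (95% interval -0.21 to 0.43) for C1r and 0.07 (-0.29 to 0.42) for C1s. The highest C1r of all rats was that of WT rat 10RT43, the rat with cerebellum genes.

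Serping1, the inhibitor of C1r and C1s, varied widely within each group, with a coefficient of variation of 52.1% in WT, 55.3% in HIP and 43.99% in AKO rats. Medians were 253 in WT (156.7 to 609), 323 in HIP (200.1 to 892) and 432 in AKO rats (207 to 850.5). Its log2 fold change in AKO vs. WT was 0.49 ± 0.29 (95% interval -0.10 to 1.09, p = 0.0978). Without the rats with cerebellum, pineal gland or choroid plexus genes it was 0.67 (p = 0.0256), and without WT rat 10RT43 alone 0.61 (p = 0.0351). WT rat 10RT43, at 609, and the HIP animal 10RT46, at 892, had the highest values of their groups. Without WT rat 10RT51 or AKO rat 7AKO30 the difference was 0.60 (p = 0.0451 and 0.0441), and with sample-quality weights 0.52 (p = 0.0386). It was 0.88 (p = 0.0287) with only the KAH-named AKO rats and 0.24 (p = 0.485) with only the AKO-named rats, and none of these values passed the adjusted threshold (limma).

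The level of Serping1 moved with the olfactory bulb genes. The 10 rats with high olfactory bulb genes (mean log2 7.05 to 9.88) had 334 to 850.5 normalized counts of Serping1, with a median of 408. The other 20 rats (mean log2 3.12 to 5.39) had 156.7 to 892, with a median of 255. C1s had medians of 186 and 149.1 in the same sets of rats, and C1qa of 1175 and 1076. With the olfactory bulb genes as a covariate, chosen after the data were seen, the difference of Serping1 in AKO vs. WT was 0.42 (p = 0.0918) and those of the C1q chains were 0.53 to 0.66.

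C3ar1, a receptor on myeloid cells, was low, with 15.1 to 54.6 normalized counts in all rats, or about 11 to 72 estimated reads, so its values are less precise than those of the other members. Medians were 35.2 in WT, 36.5 in HIP and 45.96 in AKO rats, and 6 of 10 AKO rats were above every WT rat. The log2 fold change was 0.26 (95% interval -0.15 to 0.66) in AKO vs. WT and 0.20 (-0.11 to 0.50) in HIP vs. WT. The lowest value was AKO rat 4KAH27, and without that rat the difference in AKO vs. WT was 0.40 (p = 0.0130, limma adjusted p = 0.351). It was 0.40 with sample-quality weights (p = 0.00953, limma adjusted p = 0.0951), 0.44 with only the AKO-named AKO rats (p = 0.0175, limma adjusted p = 0.495) and -0.017 with only the KAH-named rats (p = 0.952).

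In HIP vs. WT, no member passed a threshold. The unadjusted p was under 0.05 for 2.57% of the 17085 genes tested and for 0 of 8 members (limma, smallest p 0.199, for C3ar1). The adjusted p was under 0.05 for 0.0% of genes. The log2 fold changes were 0.076 for C1qa (95% interval -0.41 to 0.56), 0.060 for C1qb (-0.41 to 0.53), 0.15 for C1qc (-0.35 to 0.65) and -0.046 for C3 (-0.74 to 0.65). C1r, C1s and Serping1 were at 0.062, 0.047 and 0.18.

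These values turned on 1 rat. In 10RT48, C1qa was 4.88, C1qb 4.48, C1qc 4.66 and C3 9.16 times the median of the other HIP rats. Without it, the log2 fold changes of C1qa, C1qb, C1qc and C3 were -0.15, -0.15, -0.065 and -0.35, and none was called. The other 9 HIP rats had 922 ± 126 normalized counts of C1qa (SD, n = 9), and 2 of these 9 were above the WT median of 1094.

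The high complement of 10RT48 was not limited to the members. C4a, which the C1 complex cleaves, had 5547 normalized counts against a median of 606 in the other HIP rats. C4b, a near-identical copy with which reads may be split, had 165 against 58.5. Cfb, the protease that binds C3 in the alternative pathway, had 1419 against 335. Fcnb, a ficolin that recognises sugars, had 89.0 against 2.11. C1s, Serping1, Masp1 and Cfp were at 1.07, 0.92, 0.94 and 0.93 times the median of the other HIP rats. Of the 37 other complement genes measured, 7 were highest of all 30 rats in 10RT48, and so were 427 of 15526 genes with a mean of at least 10.

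Microglia genes were also high in 10RT48. Of the 11 measured microglia markers, 6 were highest of all rats in it, against 427 of 15526 genes with a mean of at least 10. Of the 11, 8 exceeded 1.5 times the median of the other HIP rats. The share of all genes over that limit was not computed. Tyrobp was 3.09, Aif1 2.62 and Cx3cr1 2.23 times that median. Of the markers of resident microglia, Tmem119 was 1.84, Sall1 1.31 and P2ry12 1.30 times it. The mean log2 of the list was 9.51 in 10RT48 and 8.47 to 8.97 in the other HIP rats. Cd68, a lysosomal marker of phagocytes, had 259.7 normalized counts against 33.4. The part of these markers in the result was not tested.

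In HIP vs. AKO, the log2 fold changes of all 8 members were below 0 (those of C1r and C1s were above 0 with sample-quality weights), and 3 of 8 had an unadjusted p under 0.05, against 12.7% of the 17092 genes tested, or 6.9% counting only genes lower in HIP rats. The adjusted p was under 0.05 for 0.17% of genes and for no member. C1qa was -0.48 ± 0.23 (p = 0.0452), C1qb -0.61 ± 0.23 (p = 0.0153) and C1qc -0.53 ± 0.24 (p = 0.0386), and C3 was -0.79 ± 0.43 (p = 0.0810). Of the HIP rats, 1, rat 10RT48, was above the AKO median in each of these genes. Without it the differences were -0.70, -0.82, -0.75 and -1.09, 4 members had an unadjusted p under 0.05, and 3 passed the adjusted threshold. Leaving out 1 rat at a time, C1qa had p of 0.05 or more in 16 of 20 fits, C1qc in 11 and C1qb in none. C1qb alone had p under 0.05 when HIP rat 10RT37, 10RT41, 10RT42, 10RT52, 10RT54 or 12RT23, or AKO rat 4KAH35, 6AKO52 or 7AKO42, was left out. With only the KAH-named AKO rats, C1qa (-0.37, p = 0.288), C1qb (-0.63, p = 0.0908) and C1qc (-0.67, p = 0.0784) did not pass and Serping1 was -0.70 (p = 0.0419). With only the AKO-named rats, C3 was -1.49 (p = 0.00147), and C1qa (p = 0.0626) and C1qc (p = 0.141) did not pass. Without the rats with cerebellum, pineal gland or choroid plexus genes, C1qa (p = 0.108) and C1qc (p = 0.0761) did not pass and Serping1 was -0.59 (p = 0.0231). Both comparisons with AKO share the AKO rats, and those with WT share the WT rats, so they are not independent.

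Microglia genes were compared with the C1q difference, since the C1q genes are expressed in these cells. The mean log2 of the 11 measured markers had medians of 8.79 in WT (7.98 to 9.13), 8.79 in HIP (8.47 to 9.51) and 9.04 in AKO rats (8.09 to 9.27). Of the 11 markers, 4 had an unadjusted p under 0.05 in AKO vs. WT, all higher, against 5.23% of all genes tested. Among them were Ctss (0.55, p = 0.0002), Tyrobp (0.47, p = 0.00309) and Csf1r (0.31, p = 0.0284). Tmem119, P2ry12 and Sall1, which mark resident microglia, had -0.48, -0.08 and -0.04 and did not pass. No defining marker was at 0. With the list mean as a covariate, C1qa was 0.46 higher in AKO than in WT rats (p = 4.26e-05), C1qb 0.65 (p = 0.000615) and C1qc 0.61 (p = 0.000529). C3 was 0.61 (p = 0.0796).

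Some markers of other cell types also had an unadjusted p under 0.05 in AKO vs. WT. Of all genes tested, 9.34% did, or 5.23% counting only genes higher in AKO rats. Perivascular macrophage markers were higher in 2 of 6, Cd68 (0.77, p = 0.000115), which marks phagocytes in general, and Cd163 (0.51, p = 0.0135). The others did not pass, with Mrc1 at 0.43, Pf4 at 0.16, F13a1 at 0.02 and Lyve1 at -0.3. Reactive astrocyte markers were higher in 5 of 9 and lower in 1. Lcn2, an iron carrier of inflamed tissue, rose by 2.66 (p = 0.000159) and Timp1, a protease inhibitor, by 1.58 (p = 0.00141), while Steap4 fell by 1.21 (p = 0.00664). All 3 were highest of all rats in AKO rat 4KAH27, at 281, 885 and 71.3 normalized counts. Their differences without this rat are not given here. Blood and blood cell genes were higher in 3 of 6. Pericyte and smooth muscle genes were higher in 1 of 7, with a median log2 fold change of -0.06. Astrocyte, meningeal fibroblast, endothelium, oligodendrocyte, cortical neuron, olfactory bulb and striatum genes had no marker with p under 0.05. Their part in the complement differences was not tested beyond the covariates given.

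Other genes of complement were taken from a list of 52, of which 37 were tested. Between AKO and WT rats, 9 were higher and 1 lower at an unadjusted p under 0.05, that is 10 of 37 called, against 9.34% of all genes tested, or 5.23% counting only genes higher in AKO rats. The median log2 fold change of the 37 was 0.13. Of the recognition and early components, 3 of 8 were higher. These were Masp1, a protease of the lectin pathway (0.38, p = 0.000684), C4a (0.61, p = 0.00865) and Fcnb (1.46, p = 0.00887, at means of 8.31 and 1.54 normalized counts). Colec11, a lectin, was at 0.13. Of the receptors, 3 of 8 were higher. Itgam and Itgb2, the chains of complement receptor 3, were 0.87 (p = 8.45e-05, limma adjusted p = 0.0623) and 0.48 (p = 0.00175), and C5ar2, a receptor of C5a, was 0.54 (p = 0.0105). Itgam was 164 ± 36.9 in WT and 309.5 ± 107.6 in AKO rats (SD, n = 10 per group), and 10 of 10 AKO rats were above the WT median.

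In the alternative pathway, Cfd, the protease that activates Cfb, was higher (0.44, p = 0.0228), and Cfb (0.30, p = 0.0616) and Cfp (0.31, p = 0.178) did not pass. Of the terminal components, C8g was higher (0.35, p = 0.0260) and C6 lower (-0.88, p = 0.0121, at 2.69 and 5.48 normalized counts). Among the fluid-phase regulators, Clu, or clusterin, was higher (0.37, p = 0.0137), 1 of 6. Membrane regulators, which protect the host's own cells, had none of 3 called, with Cd59 at -0.13 and Cr1l at -0.07. Of the 7 brain sushi-domain inhibitors, none was called, with Sez6 at 0.12 and Sez6l2 at -0.05. The receptors Lrp1 and Calr were at -0.10 and 0.06.

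In HIP vs. WT, none of the 37 had p under 0.05 (smallest 0.0605), with a median of 0.02. In HIP vs. AKO, 7 were lower and none higher, which is 18.9% of the 37, against 12.7% of all genes tested in either direction and 6.9% lower in HIP rats. They were Masp1 (-0.26), Colec11 (-0.19), Cfd (-0.64), Cfp (-0.32), C8g (-0.32), Itgam (-0.85) and Itgb2 (-0.50). Itgam had the smallest p, 0.00063, and its values were 174.5 ± 79.8 in HIP and 309.5 ± 107.6 in AKO rats.

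The C1q chains moved together across rats after the group means were subtracted. Over the 30 rats, Pearson's r was 0.931 between C1qb and C1qc (Spearman's rho 0.842), 0.888 between C1qa and C1qc (rho 0.747) and 0.872 between C1qa and C1qb (rho 0.814). In each of these relations the permutation p was 1e-05, the smallest that 100000 resamples can give, and the adjusted p 0.00014 over 84 relations. Much of the size came from 10RT48. Without it they were 0.832, 0.704 and 0.642, with adjusted permutation p of 0.00028 to 0.00228. Without the 2 rats farthest from the median of the second gene they were 0.82, 0.682 and 0.873. Within groups, r of C1qa and C1qb was 0.95 in WT, 0.972 in HIP and 0.415 in AKO rats.

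AKO rat 4KAH27 had more C1qb than C1qa. The ratio of C1qb to C1qa was 1.39 in it and 0.518 to 0.746 in the other 29 rats. Its ratio of C1qc to C1qa was 0.857, and that of the others 0.362 to 0.631. This rat had the lowest estimated depth, 12.9 M, and the highest mean log2 of reactive astrocyte genes, 8.74. Without both 4KAH27 and 10RT48, r of C1qa and C1qb was 0.881.

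C1qa also moved with the microglia genes, with r = 0.724 (rho 0.79, permutation p = 1e-05, adjusted 0.00014), 0.746 without 10RT48, and 0.892, 0.90 and 0.648 in WT, HIP and AKO rats. C1qb and microglia had r = 0.455 (adjusted permutation p = 0.0594) and C1qc 0.573 (adjusted permutation p = 0.0111), and both turned on single rats. Without 10RT48 they were 0.206 (adjusted permutation p = 0.449) and 0.412 (adjusted permutation p = 0.083), and without both 10RT48 and 4KAH27 they were 0.718 and 0.75. Within groups, C1qb and microglia had r of 0.911 in WT, 0.905 in HIP and -0.36 in AKO rats, and C1qc 0.93, 0.855 and 0.0536.

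**Figure D4:**
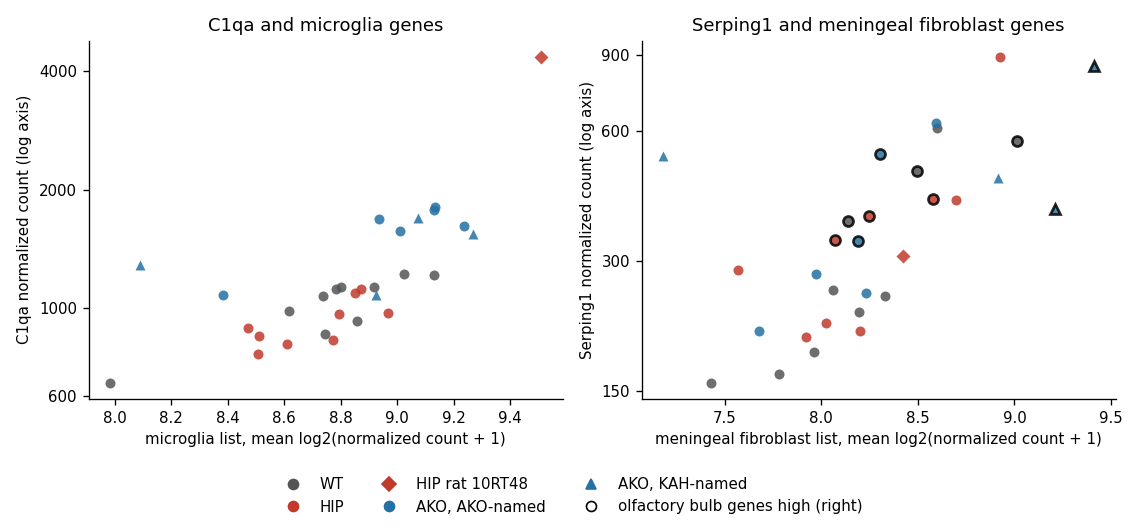
Normalized counts (log y axis) against the mean log2 of a list (x axis), 1 point per rat. Left, C1qa and microglia genes rise together (r = 0.724 after group means were subtracted). Most AKO rats are above WT rats at a similar list mean, but 6KAH99 (C1qa 1077) is below WT rat 10RT57 (1134). Right, Serping1 and meningeal fibroblast genes (r = 0.654), with a black outline on the 10 rats whose olfactory bulb genes were high.

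C1s and Serping1 formed another pair, with r = 0.761 (rho 0.745, adjusted permutation p = 0.00014), 0.765 without 10RT48 and 0.81, 0.634 and 0.828 in WT, HIP and AKO rats. Both moved with meningeal fibroblast genes, with r = 0.63 for C1s and 0.654 for Serping1 (adjusted permutation p = 0.00168 and 0.00126). Both also moved with reactive astrocyte genes, a list that includes Vim. There r was 0.588 for Serping1 and 0.484 for C1s (adjusted permutation p = 0.00277 and 0.0286). With perivascular macrophage genes, C1r had r = 0.579 and C1s 0.539 (adjusted permutation p = 0.0063 and 0.0111). C1r and C1s, neighbours in the genome and partners in the C1 complex, had r = 0.519 (rho 0.561, adjusted permutation p = 0.0161) and 0.473 without the 2 rats farthest from the median of C1s.

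C3 and C1qa had r = 0.715 (rho 0.527, adjusted permutation p = 0.00072), and 0.451 without 10RT48 (rho 0.448, permutation p = 0.0145, adjusted 0.053), so that without this rat it missed the adjusted threshold. Within groups it was 0.0759 in WT, 0.955 in HIP and 0.598 in AKO rats. With the other chains, C3 had r = 0.489 for C1qb (adjusted permutation p = 0.0516) and 0.5 for C1qc (adjusted permutation p = 0.0469). Without 10RT48 these were 0.016 and 0.0521. C3 and microglia genes had r = 0.556 (adjusted permutation p = 0.0111), and 0.403 without 10RT48 (adjusted permutation p = 0.0929). C3ar1 had r = 0.755 with astrocyte genes (rho 0.709, adjusted permutation p = 0.00014) and 0.62 without 4KAH27 and 12RT23. It also moved with endothelium (0.621), microglia (0.542) and meningeal fibroblast genes (0.476), with adjusted permutation p of 0.00405, 0.0146 and 0.0353. Without both 10RT48 and 4KAH27, r was 0.631 with astrocyte, 0.341 with endothelium, 0.205 with microglia and 0.248 with fibroblast genes. Of the 84 relations, 21 had an adjusted p under 0.05 over all rats.

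**Figure D5:**
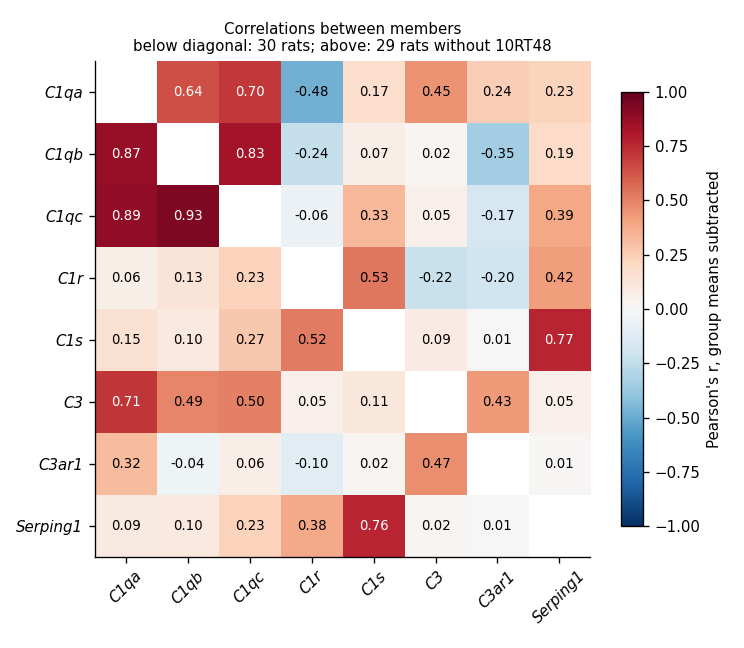
Pearson's r between the members after group means were subtracted, in all 30 rats (below the diagonal) and in the 29 rats without HIP rat 10RT48 (above it). The C1q chains and the pair C1s and Serping1 stay high in both, and C1qa and C3 fall from 0.71 to 0.45.

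The genes most like each member across rats, among 13711 with a mean of at least 10, were named by Pearson's r over the 30 rats after group means were subtracted. C1qa was most like Anxa3 (0.91), Irf8 (0.896), a transcription factor of myeloid cells, and C1qc (0.888). C1qb was most like C1qc (0.931), Fcgr3a (0.925), an antibody receptor, and Anxa3 (0.898), and C1qc was most like C1qb, C1qa and Hcls1 (0.88). C3 was like RT1-Ba (0.857) and RT1-Db1 (0.846), which are class II histocompatibility genes. These depended on 10RT48. Without it, C1qa was most like Laptm5 (0.847), C1qb like Ifngr1 (0.863) and C3 like Cmklr1 (0.849).

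For Serping1 the nearest genes were Vim (0.909), the filament protein vimentin, Cxcl16 (0.886) and Fbln1 (0.865), and they were the same 3 without 10RT48. C1s was most like Rab11fip1 (0.865), Yap1 (0.837) and Nid1 (0.833), a basement membrane protein, also without 10RT48. C1r was most like Myo1c (0.759), Vsig10 (0.739) and Akap12 (0.737), and C3ar1 like Tek (0.806), a receptor of endothelial cells, Me2 (0.796) and Hacd4 (0.776). Without 10RT48 and 4KAH27, the rat with the lowest C3ar1, these were Sting1 (0.651), Pik3ap1 (0.633) and Tek (0.615).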

How the data were processed

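The deposited values are signal, normalized read counts made by the authors: reads from libraries of 1.3 µg total RNA (SMARTER mRNA-Seq kit, Illumina HiSeq) were aligned to rn7 in Partek Flow, counted on Ensembl 105 genes and scaled with DESeq2. The submitters' processing notes name Partek 10.0.22.0228, Bowtie2 and STAR 2.7.8a. The values are not whole, so no count model was run. Between 81.4% and 86.1% of values from 2 to 30 were whole multiples (within 0.02) of 1 step per rat, which gave the estimated reads.

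Groups came from the sample labels, and each rat is 1 sample. Tests were limma 3.58.1 in R 4.3.3 (trend, two-sided) on log2(normalized count + 1), which understates the change of low genes, on genes whose mean was 1 or more over the 2 groups compared, with Benjamini-Hochberg adjustment. On simulated data for HIP vs. WT with 17076 genes, 195 of 200 genes changed 2-fold were recovered and 8 unchanged genes were called. The simulated counts had the same dispersion for all genes, and no outlying rats or differences of dissection. They check that the code runs as meant and do not give the power in the real data, where rats vary more. Correlations used Python 3.11.15 and scipy 1.17.1.

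The members and lists were chosen with earlier results of these data known. Genes named were the members, other complement genes with p under 0.05 in any comparison and the 2 highest in each complement list, the 3 genes most like each member, and cell type markers, of which some are not reported here. Cd68, Lcn2, Timp1, Steap4 and the genes of rat 10RT48 were named after their values were seen. Rats with cerebellum, pineal gland or choroid plexus genes had a list mean over 3 (log2) above the median of all rats. The olfactory bulb list limit of 7, the olfactory bulb covariate, the test between AKO name sets and the correlations without 10RT48 were chosen after the data were seen.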

Additional observations from a re-analysis of the deposited data

Results flagged for a closer look

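Rats that stand apart from their group were looked for with Dixon's criterion at the 95% level, which divides the distance to the next rat by the range of the group. They were found in 10 of 45 sets of 10 rats (8 members and 7 cell type lists in 3 groups). Independent sets with normally distributed values would give about 2.25. The sets are not independent, since they share rats and 10RT48 recurs in several. The members were also taken as normalized counts and not as log2. The number found therefore cannot be set against 2.25.

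HIP rat 10RT48 was the highest HIP rat in C1qa (4340 normalized counts, next rat 1120), C1qb (2450, next 764), C1qc (2050, next 613) and C3 (2690, next 571), and in the mean log2 of microglia genes (9.51, next 8.97). AKO rat 4KAH27 was highest in C1qb (1790, next 1132) and in the mean log2 of reactive astrocyte genes (8.74, next 7.395). WT rat 10RT43, which had cerebellum genes, was highest in C1r (734, next 506) and lowest in the mean log2 of microglia genes (7.98, next 8.62). HIP rat 10RT46, which had pineal gland and choroid plexus genes, was highest in Serping1 (892, next 419).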

How the results depend on the processing

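No paired analysis was possible because the labels give the rats no shared numbers. In HIP vs. WT, no member had p under 0.05 under any alternative run. Other complement genes called there (0 of 37) were 1 with a pseudocount of 0.1 and with the microglia or meningeal fibroblast covariate, and 2 with sample-quality weights and without the rats with cerebellum, pineal gland or choroid plexus genes. In AKO vs. WT, members with an adjusted p under 0.05 (0 of 8) were 4 with sample-quality weights and 1 with the microglia covariate (C1qa), the fibroblast covariate (C1qb) or only the AKO-named rats (C3), and other complement genes called (10) were 17 with the weights. In HIP vs. AKO, 1 member passed the adjusted threshold with the weights (C3), members called (3) were 1 with the microglia covariate (C1qb) or only the KAH-named rats (Serping1, with the C1q chains lost), and other complement genes called (7) were 4 with quantile normalization. Relations with adjusted p under 0.05 (21) were 7 in WT, 11 in HIP and 0 in AKO rats alone, where the groups hold 10 rats each.

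Directions changed in the following differences (log2), of which C3 in AKO vs. WT was the only one with an unadjusted p under 0.05 in the fit of all rats. C3 in HIP vs. WT was 0.00 without the rats with other tissue. In AKO vs. WT, C1r was -0.074 and C1s -0.063 with only the AKO-named rats, and C3 -0.32 and C3ar1 -0.017 with only the KAH-named rats. In HIP vs. AKO, C1r was 0.10 and C1s 0.068 with the weights, C1s 0.021 and C3ar1 0.052 with the microglia covariate, C1s 0.018 with the fibroblast and 0.029 with the olfactory bulb covariate, C1r 0.14 and C1s 0.11 with the AKO-named rats, and C3 0.27 and C3ar1 0.21 with the KAH-named rats. The causes were not tested.

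Leaving out 1 rat at a time gave these ranges where a direction or a count changed. In HIP vs. WT, C1qa was -0.149 to 0.13, C1qb -0.151 to 0.116, C1qc -0.065 to 0.218, C1r -0.008 to 0.159, C1s -0.001 to 0.123 and C3 -0.353 to 0.043, and 0 to 2 other complement genes were called. In AKO vs. WT, C1s was -0.024 to 0.144, and 0 to 3 members passed the adjusted threshold. In HIP vs. AKO, C1r was -0.117 to 0.047, C1s -0.079 to 0.071 and C3ar1 -0.206 to 0.003, 1 to 4 members and 3 to 9 other complement genes were called, and 0 to 3 members passed the adjusted threshold. Of the members, C3ar1 had the lowest normalized counts, and Fcnb and C6, of the other complement genes, were lower still.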
